A study of Mus musculus with 4 samples.

Results

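The effect of Rab44 loss on the lung under OVA-induced conditions was described by comparing 2 RNA-seq libraries, 1 from OVA-induced Rab44-KO mice and 1 from OVA-induced WT mice. A gene was included when its count reached 10 in whichever of the 2 libraries was higher, which gave 19259 of the 41079 genes in the table. Of these, 256 had exactly 10 counts in the higher library, 308 genes just below had 9, and 5555 of the included genes had fewer than 100. Because each group was 1 library, every difference is one between libraries, without a replicate check, and no p-value was computed. Levels are given as counts or as CPM, which are counts scaled to the size of each library, and differences as log2FC, the log2 ratio of CPM in Rab44-KO to that in WT. "Over 2-fold" means a log2FC above 1 or below -1. A range after a log2FC is its exact 95% interval by the Clopper-Pearson method, which covers counting error only.

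The Rab44 gene had been disrupted in C57BL/6 mice with CRISPR/Cas9. WT controls were littermates, and the study's methods give all mice as female and their age as 8 to 14 weeks. The OVA-induced mice of both genotypes received 100 µg of ovalbumin (OVA) with alum into the peritoneum on days 0, 7 and 14 and 100 µg of OVA in 50 µL into the nose daily from day 17 to day 20, and lungs were taken on day 21. The normal WT and normal Rab44-KO mice, used here as background, are labelled as untreated, although the shared protocol also names a PBS challenge. How many mice were behind each library is not stated in the sources used here. The 2 OVA-induced libraries held 19910236 (WT) and 19144409 (Rab44-KO) counts and the normal ones 19164196 and 18112901. A count of 3, taken as the lowest level that can be told from 0, corresponded to 0.154 to 0.164 CPM. All 4 libraries carried transcripts of the Y chromosome, from 1536 to 2216 counts of Ddx3y, 484 to 731 of Kdm5d, 363 to 521 of Uty and, with normal WT lowest, 397 to 1730 of Eif2s3y, which goes against mice that were all female. Xist, the RNA of the inactive X chromosome, had 538 counts in the OVA-induced WT library against 72 in OVA-induced Rab44-KO, 41 in normal WT and 40 in normal Rab44-KO. The part of this in the results was not tested.

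Rab44 is a large Rab GTPase with EF-hand domains, which are calcium-binding, and Rab GTPases direct the traffic of vesicles between compartments. In allergic airway inflammation, type 2 cytokines such as IL-4 and IL-13 act on the airway epithelium, which makes mucus, and on macrophages, which take the alternatively activated state, while chemokines draw eosinophils, T cells and monocytes into the lung and B cells become antibody-secreting plasma cells. Macrophages and dendritic cells take up and digest material in lysosomes, and dendritic cells present its peptides on MHC class II. In RNA of whole lung, fewer cells of a type and less RNA per cell cannot be told apart.

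Rab44, the targeted gene (chromosome 17 of GRCm38, 29114145 to 29148980), had 0 counts in the OVA-induced Rab44-KO library and 1 in normal Rab44-KO, against 810 in OVA-induced WT and 251 in normal WT, and with 0 set to 3 counts was 272-fold lower in the OVA-induced pair. The exact interval of its log2FC, which takes a wider margin for a count of 0, ended at -7.78. Its relatives did not share this difference. Cracr2a, another large EF-hand Rab, had 1188 counts in OVA-induced WT against 1107 in OVA-induced Rab44-KO (log2FC -0.11), and Rasef had 442 and 643 (0.53).

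Over all 19259 genes, the Rab44-KO library was over 2-fold higher in 1617 (8.4%) and over 2-fold lower in 1413 (7.34%), and the quartiles of log2FC were -0.42 and 0.42. With the deposited TPM in place of CPM the split was 2602 to 777. Of the 13704 genes that reached 100 counts, 3.64% were higher and 4.34% lower. In the normal pair, 2.77% of 18718 genes were higher and 2% lower over 2-fold. Over all genes, an 8-fold decrease was exceeded by 211 and an 8-fold increase by 111, and among the genes that reached 100 counts by 76 and 9. A count of 0 was found in the Rab44-KO library for 47 genes and in the WT library for 30.

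**Figure D1:**
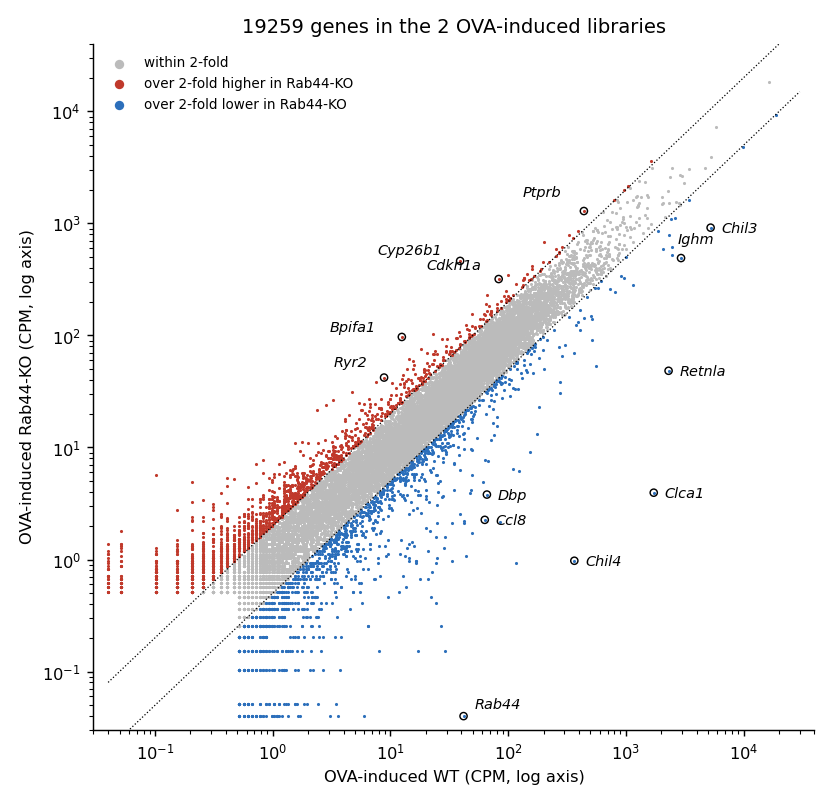
CPM of 19259 genes in the OVA-induced WT library (horizontal, log axis) and the OVA-induced Rab44-KO library (vertical, log axis), with dotted lines at a 2-fold difference and genes at 0 counts drawn near the edge. The genes farthest from the diagonal are below it, with Clca1 at 1725 CPM in WT and 3.95 CPM in Rab44-KO, while the genes above it, such as Cyp26b1 at 39.1 and 463 CPM, are closer.

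Log2FC followed transcript length across the whole table. The length of each gene was taken from the deposited values themselves, so it is that of the authors' gene model, and for some genes, Alox15 and Rtkn2 among them, it exceeds the length in GENCODE. In order of length, the median log2FC of 10 groups of equal size was -0.47 for the shortest, from 38 to 1096 bases, then -0.38, -0.28, -0.22, -0.16, -0.03, 0.05, 0.17 and 0.29, and 0.47 for the longest, from 9608 to 164773 bases. Among the shortest genes 11.7% were over 2-fold higher and 20.2% lower, and among the longest 14% were higher and 3.32% lower. The same medians in the normal pair ran only from -0.05 to 0.07. The OVA-induced libraries departed from their own normal libraries in opposite ways, since OVA-induced over normal went from 0.26 in the shortest group to -0.25 in the longest in WT and from -0.10 to 0.12 in Rab44-KO. The mean transcript length, weighted by counts, was 4548 bases in OVA-induced WT against 5488 in OVA-induced Rab44-KO, against 5071 and 5165 in the normal libraries. Differences in RNA quality, library preparation and cell makeup between the 2 libraries cannot be told apart from genotype here. For each group of genes below, the running median of log2FC among genes of like length (250 genes to either side) is therefore given as the "length trend", together with the group's median after it was taken off. With the trend removed, 9.03% of genes were over 2-fold higher and 5.72% lower, and in the normal pair 2.78% and 1.94%.

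**Figure D2:**
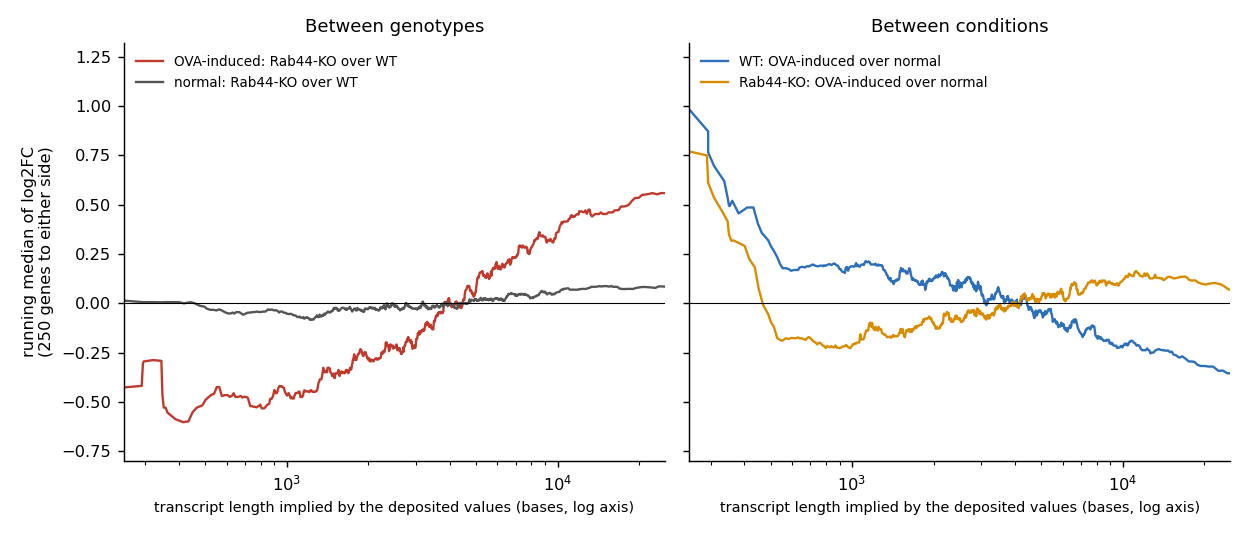
Running median of log2FC (vertical) along transcript length in bases (horizontal, log axis) for Rab44-KO over WT (left) in the OVA-induced and normal pairs, and for OVA-induced over normal (right) in WT and Rab44-KO. The OVA-induced genotype line climbs from below to above 0 whereas that of the normal pair stays close to 0, and on the right the WT and Rab44-KO lines cross.

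Kinds of genes differed as well. Of 15448 protein-coding genes, 4.71% were over 2-fold higher and 6.62% lower in the Rab44-KO library, with a median of -0.07. Of 3358 genes typed as ncRNA in the deposited table, 24.9% were higher and 6.91% lower, with a median of 0.38 where genes of their length had -0.24. Among the 867 of them that reached 100 counts the median was 0.24, with 15.5% higher and 3.34% lower. In the normal pair the median of all ncRNA genes was 0.05. Gm41846, a predicted gene of this type, had 18 and 22 counts in the normal libraries, 8 in OVA-induced WT against 104 in OVA-induced Rab44-KO, a log2FC of 3.67 (2.66 to 4.94). The library kit keeps strand, but whether the authors' counting used it is not stated in the sources used here, and without it reads of a noncoding gene and of a gene on the opposite strand cannot be told apart.

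Groups of genes that mark cell types or pathways were described with 50 lists. The median log2FC was below -1 in 10 lists and above 1 in 1 list, and 34 medians were below 0 and 16 above. With the length trend removed, 5 lists were below -1 and 2 were above 1, and the median of 3 lists (alveolar type 1 cells, retinoic acid and heat shock) changed sign, all from values close to 0. Length also ordered genes inside the lists. When the members of each of the 47 lists with at least 10 measured genes were divided at the middle of their order by length, the longer members had the higher median in 39 lists, and in 32 after the trend was removed.

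**Figure D3:**
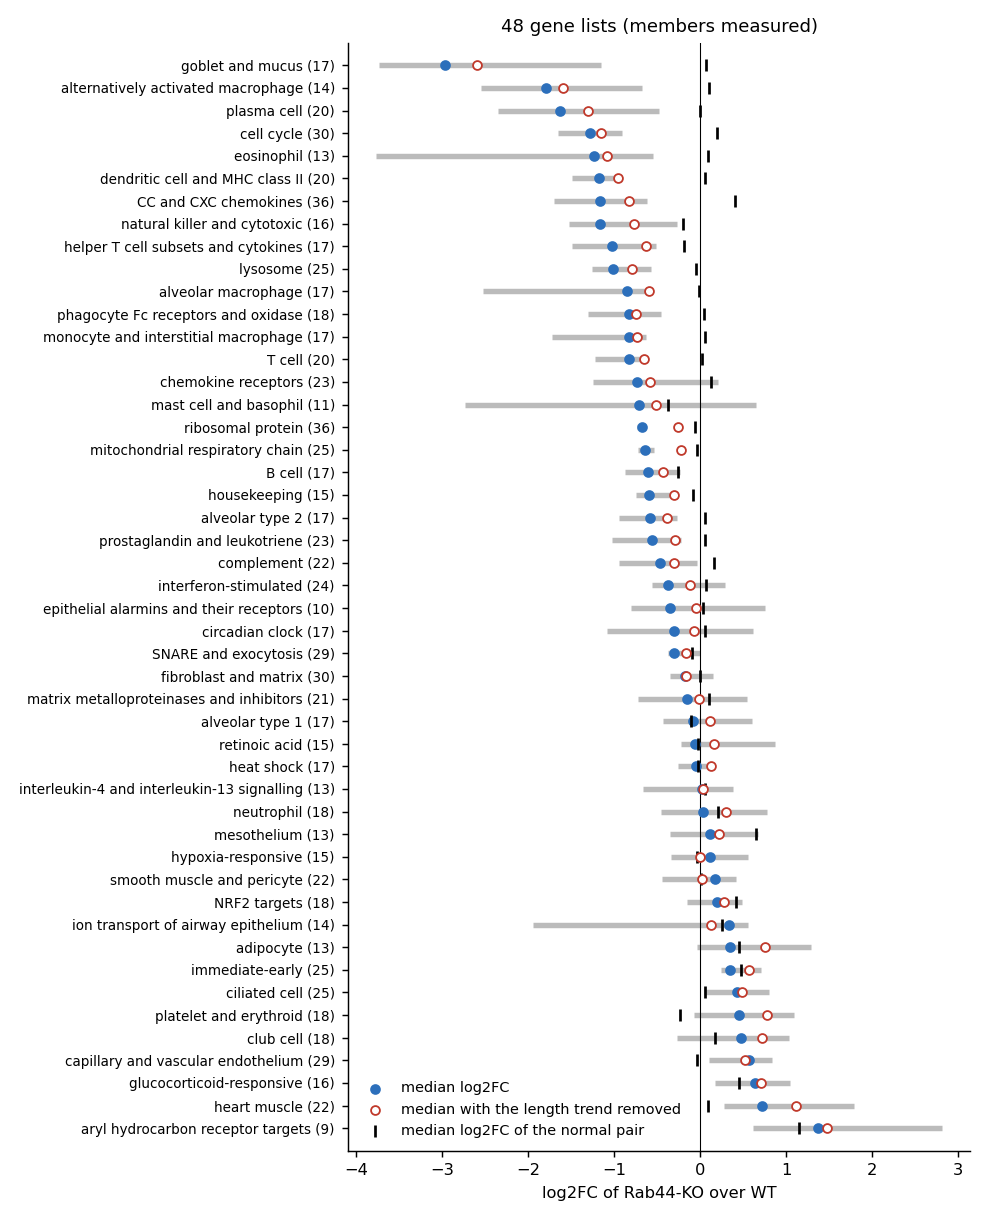
Median log2FC of 48 gene lists (filled points, with 95% order-statistic intervals over members as bars, the number of members in brackets), the same median with the length trend removed (open points) and the median in the normal pair (ticks). Mucus, alternatively activated macrophage and plasma cell genes are farthest to the left at -2.97, -1.79 and -1.63, and aryl hydrocarbon receptor targets and heart muscle genes farthest to the right at 1.37 and 0.72.

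Genes of alternatively activated macrophages were lower in the Rab44-KO library than in WT. Of 14 measured, 10 were over 2-fold lower and none higher, with a median of -1.79 against a length trend of -0.20 and -1.60 with the trend removed. Chil4 and Chil3 encode secreted chitinase-like proteins. Chil4 (chromosome 3, 106201490 to 106219507) had 365 CPM in OVA-induced WT and 0.975 CPM in OVA-induced Rab44-KO lungs and was 374-fold lower. Retnla, which encodes the secreted protein resistin-like alpha (chromosome 16, 48842551 to 48844461), had 578 and 771 counts in the normal libraries, 44659 in OVA-induced WT against 944 in OVA-induced Rab44-KO, a log2FC of -5.57 (-5.67 to -5.48). The OVA-induced Rab44-KO value was thus close to the normal values and the WT value stood alone. Mgl2, a lectin receptor, had 1572 counts in OVA-induced WT against 304 in OVA-induced Rab44-KO (-2.38), and the lipoxygenase Alox15 had 942 and 190 (-2.32).

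The sequences before the start sites of Chil4, Chil3, Retnla and Ccl8 are shown because these genes were all lower in the Rab44-KO library, and because the related Chil4 and Chil3 differed in size of effect, at -8.54 and -2.52. Each is the 250 bases before the RefSeq start on GRCm38.p6, 5′ to 3′ on the gene's strand, with capitals marking TTC and GAA separated by 3 or 4 bases, a pattern known for STAT factors that reads the same on both strands, and TATAAA or its reverse complement. RefSeq's table held an entry for these 4 of 7 genes looked up, the others being Rab44, Clca1 and Muc5ac.
Chil4, chr3:106219480-106219729, minus strand: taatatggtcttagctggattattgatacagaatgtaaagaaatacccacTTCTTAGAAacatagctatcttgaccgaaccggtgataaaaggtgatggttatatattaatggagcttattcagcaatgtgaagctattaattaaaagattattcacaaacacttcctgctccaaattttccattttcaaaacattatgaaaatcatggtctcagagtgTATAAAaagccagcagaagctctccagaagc
Chil3, chr3:106167565-106167814, minus strand: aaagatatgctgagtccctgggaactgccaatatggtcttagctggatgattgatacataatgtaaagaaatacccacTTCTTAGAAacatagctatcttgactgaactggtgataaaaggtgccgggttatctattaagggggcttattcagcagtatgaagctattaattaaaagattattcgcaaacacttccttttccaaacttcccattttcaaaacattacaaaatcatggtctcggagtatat
Retnla, chr16:48842359-48842608, plus strand: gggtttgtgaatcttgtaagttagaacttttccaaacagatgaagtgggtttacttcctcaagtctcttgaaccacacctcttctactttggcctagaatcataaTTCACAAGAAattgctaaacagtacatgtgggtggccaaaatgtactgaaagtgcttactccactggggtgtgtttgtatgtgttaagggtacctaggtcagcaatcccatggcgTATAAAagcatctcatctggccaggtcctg
Ccl8, chr11:82114935-82115184, plus strand: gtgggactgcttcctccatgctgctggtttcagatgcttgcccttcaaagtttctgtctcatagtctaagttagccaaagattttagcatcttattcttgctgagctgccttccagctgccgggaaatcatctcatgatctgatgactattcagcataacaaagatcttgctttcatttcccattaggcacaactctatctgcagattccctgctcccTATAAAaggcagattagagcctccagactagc
Over the 222 aligned columns that the Chil4 and Chil3 windows share, 201 were identical (90.5%), the TTCTTAGAA of both included. The Chil3 window ends where the aligned Chil4 sequence comes to its TATAAA, because the RefSeq starts lie at different points of the alignment. Whether Chil3 has a TATAAA there cannot be read from its window. The pattern with 4 bases between was present in 5.85%, that with 3 bases in 7.02% and TATAAA in 12.4% of the 32851 start sites in the table, and in 4.98%, 6.15% and 7.92% of the 17997 start sites of measured genes. Among the 136 start sites of genes over 8-fold lower in the Rab44-KO library the shares were 5.15%, 8.09% and 15.4%, and among the 1092 of genes over 2-fold lower 5.31%, 7.23% and 11%. Among the 1234 of genes over 2-fold higher they were 5.75%, 6.08% and 14.2%, so the share with TATAAA was above that of measured genes in both directions. A match is a description of the letters and not of binding.

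Alveolar and interstitial macrophage genes were lower too, but not all of them. Of 17 alveolar macrophage genes 8 were over 2-fold lower and 1 higher, with a median of -0.85 (length trend -0.29, trend removed -0.60). Marco, a scavenger receptor, had 145 and 379 counts in the normal libraries, 912 in OVA-induced WT against 76 in OVA-induced Rab44-KO, a log2FC of -3.59. Gpnmb, a glycoprotein of lysosomes, had 3546 counts in OVA-induced WT against 452 in OVA-induced Rab44-KO (-2.98), the fatty acid-binding protein Fabp5 had 5389 and 756 (-2.84) and the receptor Trem2 had 390 and 68 (-2.53). Ear2, a ribonuclease of macrophages and eosinophils, differed less, with 2624 and 1810 counts (-0.55), and 6.32% of its 150-base windows also occur in other genes. Among 17 genes of monocytes and interstitial macrophages 8 were over 2-fold lower and none higher, with a median of -0.83 (length trend -0.33), or -0.73 and 5 lower with the trend removed. Ms4a7 had 332 counts in OVA-induced WT against 74 in OVA-induced Rab44-KO (-2.17) and Cd68, a lysosomal glycoprotein of phagocytes, 2352 and 651 (-1.86). The genes of complement C1q, C1qa, C1qb and C1qc, had 2152, 2001 and 1441 counts in OVA-induced WT against 658, 566 and 427 in OVA-induced Rab44-KO, and their log2FC were between -1.83 and -1.72. Lyz2, the lysozyme of macrophages and alveolar type 2 cells, had 191083 and 93268 counts (-1.04, and -0.57 with the trend removed).

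Genes of digestion in lysosomes were lower as well. Of 25 lysosomal genes 13 were over 2-fold lower and none higher, with a median of -1.01 and a length trend of -0.22, or -0.79 and 9 lower with the trend removed. Ctsk, the protease cathepsin K, had 614 and 449 counts in the normal libraries, 5349 in OVA-induced WT against 598 in OVA-induced Rab44-KO (-3.17). Ctsd and Ctss, cathepsins D and S, had 40287 and 9848 counts in OVA-induced WT and 11415 and 2894 in OVA-induced Rab44-KO, with log2FC of -1.83 and -1.78, although 28.1% of the windows of Ctsd occur in another gene model. Atp6v0d2, a subunit of the proton pump, had 3180 and 898 counts (-1.83) and Psap, the precursor of the saposins, 50866 and 21715 (-1.24). Not all members were lower by such amounts, since Lamp2 and Npc1, membrane proteins named after their values were seen, had log2FC of -0.05 and 0.11. Of 18 Fc receptor, integrin and oxidase genes of phagocytes 7 were over 2-fold lower and none higher, with a median of -0.83 (length trend -0.19), or -0.75 and 4 lower with the trend removed. Itgax had 2987 counts in OVA-induced WT against 1079 in OVA-induced Rab44-KO (-1.48), Fcgr2b, the inhibitory IgG receptor, 1519 and 585 (-1.39), and Cybb, the catalytic oxidase subunit, 4057 and 2475 (-0.72). Mmp12, macrophage elastase, had 101 and 100 counts in the normal libraries, 2153 in OVA-induced WT against 126 in OVA-induced Rab44-KO, a log2FC of -4.10. It was the farthest member of a list of 21 matrix metalloproteinases and inhibitors whose median was -0.16 (length trend -0.05, trend removed -0.02), with 4 over 2-fold lower and 1, Mmp8, higher, and 2 lower with the trend removed.

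**Figure D4:**
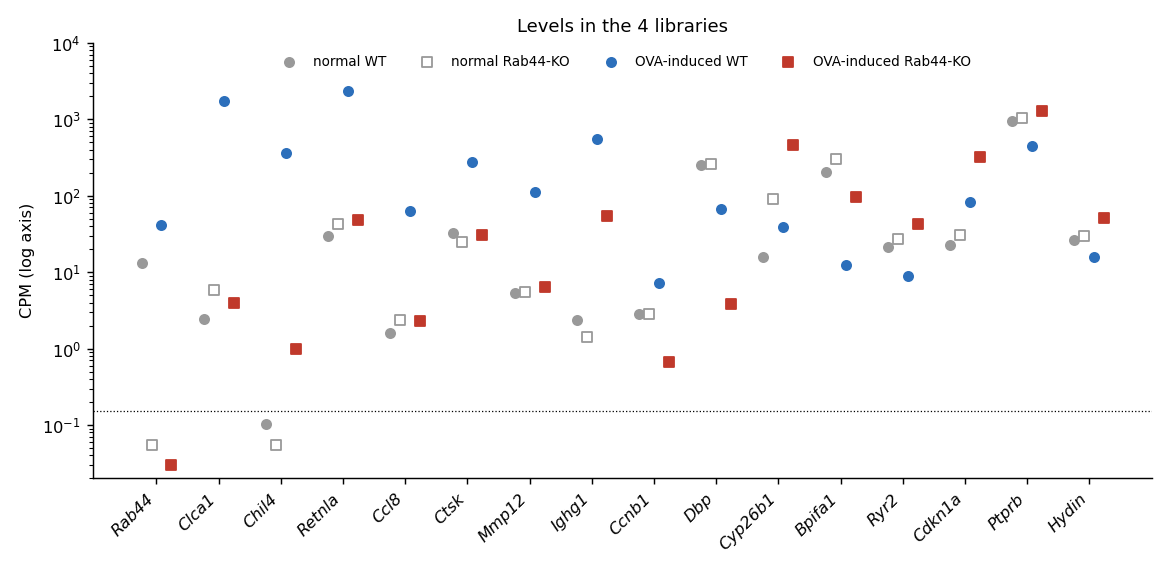
CPM (log axis) of 16 genes in the 4 libraries, with grey filled circles for normal WT, open squares for normal Rab44-KO, blue circles for OVA-induced WT and red squares for OVA-induced Rab44-KO, a dotted line at the level of 3 counts and genes at 0 counts drawn below it. For Retnla, Ctsk and Mmp12 the OVA-induced WT library stands above the other 3, and for Ptprb, Hydin and Ryr2 it stands below them.

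The genes of antigen presentation on MHC class II and of dendritic cells had a median of -1.18, and 14 of 20 were over 2-fold lower and none higher. These transcripts are short, with a length trend of -0.28, and with the trend removed 9 were over 2-fold lower, at a median of -0.96. Cd74, the invariant chain, had 18251 and 18261 counts in the normal libraries, 44815 in OVA-induced WT against 15341 in OVA-induced Rab44-KO, a log2FC of -1.56. H2-Ab1, a chain of the MHC class II molecule I-A, had 7056, 6748, 18559 and 6311 counts in the same order (-1.57). In both, the Rab44-KO library was below the normal ones and the WT library above them. Batf3, a transcription factor of dendritic cells that cross-present antigen, had 113 counts in OVA-induced WT against 24 in OVA-induced Rab44-KO (-2.24), and their receptor Xcr1 had 152 and 52 (-1.55). Clec9a, a receptor of the same cells and named after its value was seen, went the other way with 608 and 904 counts (0.56).

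Mucus genes had the lowest median of the 50 lists, -2.97, with 13 of 17 over 2-fold lower and none higher. Their length trend was -0.15, and with the trend removed the median was -2.59 with the same count of 13. Clca1 (chromosome 3, 145003817 to 145032776), which encodes a secreted protein of goblet cells, was 437-fold lower, as in the scatter of the 2 libraries. Slc26a4, the anion exchanger pendrin, had 42 and 53 counts in the normal libraries, 3426 in OVA-induced WT against 260 in OVA-induced Rab44-KO (-3.73). Fcgbp, a mucus protein, had 117, 102, 2978 and 179 counts in the same order (-4.06). For Slc26a4 and Fcgbp the OVA-induced Rab44-KO library held more counts than the normal ones and far fewer than OVA-induced WT. The effect was larger in long transcripts here, in contrast to the whole table, with a median of -3.86 in the longer members and -1.88 in the shorter ones. Capn9, a calpain of mucus-producing epithelium, had 3, 0, 156 and 3 counts (-5.65), and Fer1l6, a ferlin with a transcript of 8919 bases, 11, 17, 642 and 19 (-5.08). Muc5b, the mucin of resting airways that lies outside the naming rule, had 1072 and 1082 counts in the normal libraries, 2753 in OVA-induced WT against 962 in OVA-induced Rab44-KO (-1.53).

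Eosinophil genes were lower in the Rab44-KO library. Of 13 genes, all with a log2FC below 0, 8 were over 2-fold lower, with a median of -1.23 (length trend -0.22, trend removed -1.09). Rnase2a, a ribonuclease of the eosinophil family, had 0 and 1 counts in the normal libraries, 524 in OVA-induced WT against 5 in OVA-induced Rab44-KO (-6.68). Ear6, of the same family, had 3, 6, 110 and 8 counts (-3.77). Epx and Prg3, further granule proteins of the list, did not reach 10 counts in either OVA-induced library. Cd24a, a surface protein shared with epithelium, had 8695 and 8110 counts (-0.11). Of mast cell and basophil genes 5 of 11 were over 2-fold lower and 1 higher, with a median of -0.71 (length trend -0.37), or -0.51 with 3 lower and 1 higher with the trend removed. Cpa3, the mast cell carboxypeptidase, had 59, 35, 128 and 79 counts in the order used above (-0.70). The 1 higher gene, the transcription factor Gata2, had 1915 counts in OVA-induced WT against 4358 in OVA-induced Rab44-KO (1.18), and Kit, which endothelium also expresses, had 3068 and 4514 (0.55).

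Neutrophil genes did not move one way. Of 18, 3 were over 2-fold higher and 2 lower, with a median of 0.03, or 0.30 with a length trend of -0.33 removed. S100a9, the most abundant cytosolic protein of neutrophils, had 538 and 558 counts in the normal libraries, 3461 in OVA-induced WT against 4872 in OVA-induced Rab44-KO (0.48). Mmp8, neutrophil collagenase, had 57, 39, 163 and 400 counts (1.28), and Stfa2l1, a stefin, 13, 5, 75 and 198 (1.39). Cxcr1 was lower at -3.65, and Lcn2, lipocalin 2 of neutrophils and epithelium, had 9933 and 2710 counts (-1.88). In the summed level of the whole list, the 4 libraries had 264, 337, 1292 and 1013 CPM. The summed level of 18 platelet and erythroid genes was alike at 1847, 1874, 1710 and 1581 CPM, but 6 of them were over 2-fold higher and 2 lower, with a median of 0.45 (length trend -0.36, trend removed 0.77). Ppbp, a platelet chemokine, had 252 and 713 counts (1.49) and the platelet tubulin Tubb1 191 and 528 (1.46), whereas Ahsp, the chaperone of alpha-globin, had 184 and 29 (-2.67).

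T cell and cytotoxic lymphocyte genes were lower by moderate amounts, and most of those over 2-fold were under it once the length trend was removed. Of 20 T cell genes 8 were over 2-fold lower and none higher, with a median of -0.83, a length trend of -0.26 and -0.65 with the trend removed, after which 1 was over 2-fold lower. Trac, the constant region of the T cell receptor alpha chain, had 138 and 115 counts in the normal libraries, 365 in OVA-induced WT against 148 in OVA-induced Rab44-KO (-1.31), and Cd3d of the receptor complex 137, 119, 248 and 103 (-1.28). Thy1 had 1009 and 450 counts in the OVA-induced libraries (-1.17), and the kinase Lck 629 and 272 (-1.22). Of 16 natural killer and cytotoxic genes 9 were over 2-fold lower and none higher, with a median of -1.16 (length trend -0.40), or -0.77 and 4 lower with the trend removed. Nkg7 had 258 and 99 counts (-1.39), Gzma, granzyme A, 734 and 329 (-1.17) and Ccl5 383 and 174 (-1.15). Among 17 helper T cell genes and cytokines 9 were over 2-fold lower and none higher, with a median of -1.03 (length trend -0.29), or -0.63 with 6 lower and 2 higher with the trend removed. Gata3, the transcription factor of Th2 cells, had 307 and 197 counts in the normal libraries, 232 in OVA-induced WT against 107 in OVA-induced Rab44-KO (-1.13). The type 2 cytokines, named after their values were seen, were near the limit, with 13 and 0 counts of Il13 and 17 and 6 of Il4 in the OVA-induced libraries.

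For 13 components of IL-4 and IL-13 signalling the median was 0.02 (length trend -0.01, trend removed 0.03), with 2 over 2-fold lower and none higher. Stat6, the transcription factor that both cytokines activate, had 3310 counts in OVA-induced WT against 3374 in OVA-induced Rab44-KO (0.02), and Jak1 4958 and 5840 (0.23). Socs1, an inhibitor of this pathway, had 134 and 37 counts (-1.86), and the decoy receptor Il13ra2, named after its value was seen, 21 and 3 (-2.77). Among 10 epithelial alarmins and receptors the median was -0.35 (length trend -0.11, trend removed -0.05). Il33, the alarmin, had 1302 and 1441 counts in the normal libraries, 3834 in OVA-induced WT against 2198 in OVA-induced Rab44-KO (-0.81), and its receptor Il1rl1 352 and 173 in the latter (-1.03).

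B cell genes differed less than plasma cell genes. Of 17 B cell genes 3 were over 2-fold lower and none higher, with a median of -0.61 (length trend -0.23, trend removed -0.43). Cd79a, of the B cell receptor complex, had 1934 counts in OVA-induced WT against 1158 in OVA-induced Rab44-KO (-0.75), and Cd79b 1458 and 695 (-1.08). Of 20 plasma cell genes 13 were over 2-fold lower and none higher, with a median of -1.63 (length trend -0.34), or -1.31 and 11 lower with the trend removed. Ighm, the constant region of IgM, had 2103 and 2070 counts in the normal libraries, 56984 in OVA-induced WT against 9570 in OVA-induced Rab44-KO (-2.58). Ighg1, that of IgG1, had 45, 26, 10764 and 1043 counts (-3.38), Ighg2c 56, 44, 6981 and 1365 (-2.36), and the light chain Igkc 1309, 1159, 47753 and 10178 (-2.24). The constant regions thus remained above the normal libraries in both genotypes. They did not differ evenly, since Igha, that of IgA and named after its value was seen, had 689, 1396, 15811 and 12100 counts (-0.40). Mzb1, a chaperone of antibody-secreting cells, had 956 and 185 counts (-2.38), although 46.7% of its windows also occur in a neighboring gene model. The factor Xbp1, which drives secretion in plasma cells and other cells, had 4784 and 3920 (-0.30).

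Among 164 variable genes of immunoglobulins, 17 were over 2-fold higher and 106 lower, with a median of -1.86. Their transcripts are among the shortest in the table, at a median of 347 bases with a length trend of -0.46, and with the trend removed 27 were higher and 92 lower, at -1.42. Single variable genes differed in both directions. Igkv4-58 had 472 counts in OVA-induced WT against 8 in OVA-induced Rab44-KO (-5.87), whereas Igkv1-133 had 9 and 103 (3.49). Ighv5-16 was higher in the Rab44-KO library in both conditions, with 1 and 19 counts in the normal libraries, 2 in OVA-induced WT against 110 in OVA-induced Rab44-KO (5.68, with an interval of 3.88 to 8.84).

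Chemokine genes were lower as a group. Of 36 CC and CXC chemokines 22 were over 2-fold lower and 2 higher, with a median of -1.17. They are short, with a length trend of -0.45, and with the trend removed 13 were over 2-fold lower and 2 higher, at -0.83. Ccl8 (chromosome 11, 82115185 to 82116799), a monocyte and lymphocyte attractant, had 1.61 and 2.36 CPM in the normal libraries, 63.3 in OVA-induced WT against 2.26 in OVA-induced Rab44-KO, 28-fold lower. Ccl6, a chemokine of macrophages, had 2518 and 3541 counts in the normal libraries, 22238 in OVA-induced WT against 5493 in OVA-induced Rab44-KO (-2.03). Cxcl15, lungkine of the airway epithelium, had 39638 and 29089 counts (-0.46). The 2 higher members were Ppbp and Ccl28, the latter with 6 and 18 counts. Of 23 chemokine receptors 8 were over 2-fold lower and 1 higher, with a median of -0.74 (length trend -0.19), or -0.58 with 5 lower and 1 higher with the trend removed. Ccr2, the receptor of classical monocytes, had 1780 and 1043 counts (-0.78), and Cxcr4 1802 and 1163 (-0.64).

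Among 22 complement genes, those of C1q included, 5 were over 2-fold lower and none higher, with a median of -0.47 (length trend -0.22, trend removed -0.31). C3, the central component, had 10283 and 13596 counts in the normal libraries, 39924 in OVA-induced WT against 29760 in OVA-induced Rab44-KO (-0.43), and C4b 8607 and 8733 in the latter (0.01). The receptor C3ar1 had 317 and 114 (-1.48). Interferon-stimulated genes had 1 member over 2-fold higher and none lower of 24, with a median of -0.38 (length trend -0.22, trend removed -0.12). The higher one was Oas2, an oligoadenylate synthetase, with 122 and 247 counts (1.01).

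Of 23 genes of prostaglandins and leukotrienes 7 were over 2-fold lower and none higher, with a median of -0.56 (length trend -0.15), or -0.29 with 7 lower and 1 higher with the trend removed. Pla2g4c, a phospholipase A2, had 4 and 8 counts in the normal libraries, 106 in OVA-induced WT against 10 in OVA-induced Rab44-KO (-3.40). Hpgds, which makes prostaglandin D2, had 141 and 56 counts (-1.34), and Tbxas1, thromboxane synthase, 640 and 316 (-1.03). Ptgis, prostacyclin synthase, had 2252 and 1932 (-0.23).

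Cell cycle genes were lower almost throughout. Of 30 genes 19 were over 2-fold lower and none higher, and 29 had a log2FC below 0. The median was -1.28, the length trend -0.11, and with the trend removed the median was -1.15 and the count lower was again 19. Ccnb1, cyclin B1 of mitosis, had 54 and 51 counts in the normal libraries, 141 in OVA-induced WT against 13 in OVA-induced Rab44-KO (-3.44, and 8.2% of its windows occur in other genes). Top2a, topoisomerase II alpha, had 276, 318, 667 and 141 counts in the same order (-2.25), Birc5, survivin, 63, 64, 155 and 26 (-2.58), and Ube2c 57, 72, 130 and 27 (-2.27). In each of these 4 genes the OVA-induced Rab44-KO library was the lowest of the 4 libraries and OVA-induced WT the highest. The replication genes Pcna and Mcm6 differed less, with 1925 and 1070 counts (-0.86) and 981 and 573 (-0.79). Cdkn1a, the inhibitor p21 of the cell cycle (chromosome 17, 29090976 to 29100727), went the opposite way with 437 and 564 counts in the normal libraries, 1609 in OVA-induced WT against 6217 in OVA-induced Rab44-KO, a log2FC of 1.94 (1.86 to 2.02). It was also higher in Rab44-KO in the normal pair, at 0.44 (0.26 to 0.62). Cdkn1a lies near the targeted gene Rab44, which starts at 29114145 on the same chromosome. Whether the edited locus itself changed the level of Cdkn1a was not tested. The wider annotation of cell division in the deposited table held 379 measured genes, of which 50 were over 2-fold lower and 3 higher, with a median of -0.18 (length trend -0.02, trend removed -0.17).

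The largest increases among protein-coding genes that reached 100 counts were of several kinds. Cyp26b1, which breaks down retinoic acid (chromosome 6, 84571414 to 84593908), had 300 and 1671 counts in the normal libraries, 758 in OVA-induced WT against 9029 in OVA-induced Rab44-KO, 11.8-fold higher, and was higher in Rab44-KO in both conditions. Bpifa1, an antimicrobial protein of the upper airway epithelium (chromosome 2, 154142880 to 154149219), had 3863 and 5575 counts in the normal libraries, 242 in OVA-induced WT against 1892 in OVA-induced Rab44-KO, a log2FC of 2.96 (2.76 to 3.16). Here both OVA-induced libraries were below the normal ones. Clca3a1, a relative of Clca1, had 63, 92, 46 and 425 counts (3.19, with an interval of 2.76 to 3.67), the carboxylesterase Ces1g 172, 675, 55 and 469 (3.08), and the sulfotransferase Sult1d1 533, 683, 91 and 604 (2.72). Fam124b had 23, 17, 16 and 150 counts (3.21). Aqp4, a water channel of airway epithelium, had 148 and 237 counts in the normal libraries, 79 in OVA-induced WT against 337 in OVA-induced Rab44-KO (2.08), in a list of 14 ion and water transport genes with 2 over 2-fold higher and 3 lower and a median of 0.33 (length trend 0.09, trend removed 0.13).

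Targets of the aryl hydrocarbon receptor, which senses aromatic compounds, had the highest median of the lists at 1.37, with 6 of 9 over 2-fold higher and none lower, and 1.47 with a length trend of -0.10 removed. Nqo1, a quinone reductase, had 179 and 523 counts in the normal libraries, 95 in OVA-induced WT against 203 in OVA-induced Rab44-KO (1.08). Aldh3a1, an aldehyde dehydrogenase, had 278, 586, 289 and 777 counts (1.42), and Ugt1a6a, whose windows are shared with other Ugt1a genes for 49.1%, 152, 419, 184 and 479 (1.37). Cyp1a1, the oxidase that is a standard readout of the receptor, had 67 and 3418 counts in the normal libraries and 30 and 212 in the OVA-induced ones, so that its log2FC was 5.74 in the normal pair and 2.81 under OVA. Each of these was higher in Rab44-KO than in WT in both conditions, and the median of the list in the normal pair was 1.15, with 6 of 9 over 2-fold higher. NRF2 targets, many of them also enzymes of detoxification, had a median of 0.19 (length trend -0.25, trend removed 0.28), with 1 of 18 over 2-fold higher and 2 lower. With the trend removed 3 were higher and 1 lower. Hmox1, heme oxygenase 1, had 1177 and 513 counts (-1.21, or -0.76 with the trend removed by GENCODE lengths) and Gclc 5452 and 6433 (0.23). Among 15 retinoic acid genes 2 were over 2-fold higher and 2 lower, with a median of -0.06 (length trend -0.11, trend removed 0.16). Lrat, which stores retinol as an ester, had 2077 and 3522 counts in the normal libraries, 1354 in OVA-induced WT against 3018 in OVA-induced Rab44-KO (1.15), and Rarb, a receptor of retinoic acid, 104 and 191 in the latter (0.87).

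Club cell genes differed in both directions. Of 18 genes 5 were over 2-fold higher and 2 lower, with a median of 0.47 (length trend -0.31), or 0.72 with 8 higher and 1 lower when the trend was removed. Scgb1a1, the main secretory protein of club cells, had 440878 and 410819 counts in the normal libraries, 320451 in OVA-induced WT against 356547 in OVA-induced Rab44-KO (0.14). Aldh1a1, an aldehyde dehydrogenase that makes retinoic acid, had 33112, 35461, 19727 and 30081 counts (0.60). In Aldh1a1 the OVA-induced WT library was the lowest of the 4. The lower members were Retnla, which macrophages also express, and Lypd2.

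Ciliated cell genes differed with length. The median of 25 genes was 0.43, with 4 over 2-fold higher and none lower, and against a length trend of -0.05 it was 0.48 with 2 higher when the trend was removed. In the 12 shortest, up to 2763 bases, the median was 0.04 and none passed 2-fold, and in the 12 longest, from 3704 bases, it was 0.85 and 3 passed. Hydin, a protein of the central apparatus of the cilium with a transcript of 16133 bases, had 509 and 540 counts in the normal libraries, 303 in OVA-induced WT against 984 in OVA-induced Rab44-KO (1.69, or 1.23 with the trend removed). The axonemal dyneins Dnah12 and Dnah11 had 376 and 328 counts in OVA-induced WT and 964 and 662 in OVA-induced Rab44-KO, with a log2FC of 1.35 for Dnah12. By contrast, the short Ccdc153 had 2255 and 2132 counts (-0.09) and Tppp3 5800 and 4587 (-0.35). Foxj1, the transcription factor of the ciliated cell and named after its value was seen, had 1636 and 1755 (0.09). Of 54 genes annotated with cilium movement 8 were over 2-fold higher and none lower, with a median of 0.46 (length trend 0.00), or 0.48 and 5 higher with the trend removed.

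**Figure D5:**
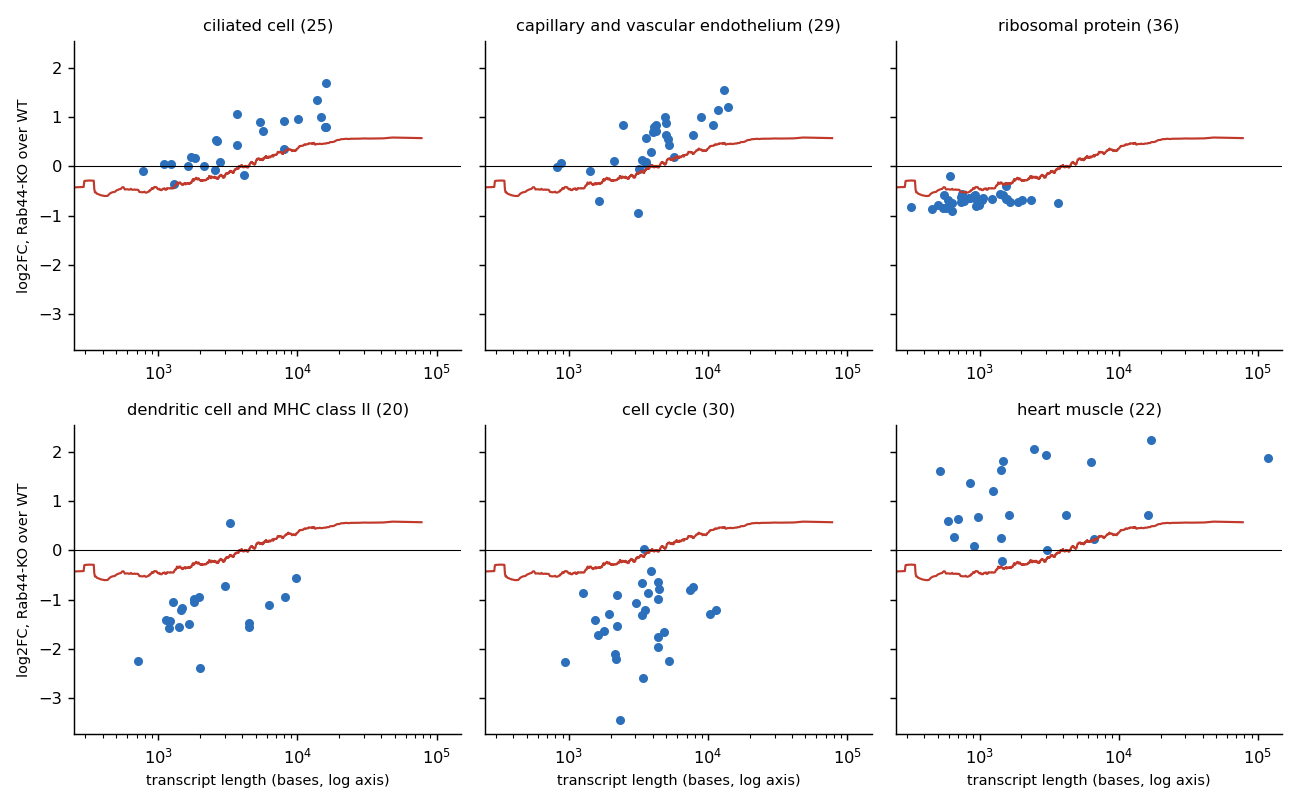
Log2FC of Rab44-KO over WT (vertical) against transcript length in bases (horizontal, log axis) for the members of 6 lists (points, number in brackets), with the running median of all genes (line). Ciliated and endothelial genes climb with length beside the line, ribosomal protein genes sit just below it, and most dendritic cell, cell cycle and heart muscle genes lie away from it among both shorter and longer genes.

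Alveolar type 2 genes were somewhat lower and alveolar type 1 genes were divided by length. Of 17 alveolar type 2 genes 4 were over 2-fold lower and none higher, with a median of -0.58 (length trend -0.19), or -0.39 and 2 lower with the trend removed. Sftpc, surfactant protein C, had 262219 and 237887 counts in the normal libraries, 361981 in OVA-induced WT against 181126 in OVA-induced Rab44-KO (-1.01, or -0.49 with the trend removed), and Sftpa1, surfactant protein A, 44937, 44336, 90530 and 61053 (-0.58). Scd1, the desaturase of fatty acid synthesis, had 66489 and 31303 counts (-1.10). Among 17 alveolar type 1 genes none passed 2-fold in either direction, and the median was -0.09 (length trend -0.13, trend removed 0.11). The shorter members had a median of -0.45 and the longer ones of 0.62. Ager had 31705 and 19434 counts in the OVA-induced libraries (-0.72), and Rtkn2 3468 and 6239 (0.84).

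Endothelial genes were higher in the Rab44-KO library, mainly the long ones. Of 29 genes 5 were over 2-fold higher and none lower, with a median of 0.57 (length trend 0.00, trend removed 0.52), and 2 passed with the trend removed. Over all genes 8.4% were over 2-fold higher, or 9.03% with the trend removed. The longer endothelial members had a median of 0.83 and the shorter ones of 0.08, or 0.67 and 0.26 with the trend removed. Ptprb, a phosphatase of the endothelial surface (13111 bases), had 18183 and 18615 counts in the normal libraries, 8514 in OVA-induced WT against 25162 in OVA-induced Rab44-KO (1.55). Flt1, a receptor of VEGF (13929 bases), had 6459, 5853, 3837 and 8854 counts (1.2), Bmpr2, a receptor of bone morphogenetic proteins, 14905, 15035, 7607 and 16846 (1.14), and Tek, the angiopoietin receptor, 8590, 7455, 4905 and 9947 (1.01). In these 4 genes the OVA-induced WT library was the lowest and OVA-induced Rab44-KO the highest. Pecam1, expressed by all endothelium, had 13741 and 15045 counts (0.12). The summed level of the list was 11301 and 11180 CPM in the normal libraries, 7832 in OVA-induced WT against 12348 in OVA-induced Rab44-KO. Smooth muscle and pericyte genes had a median of 0.17 (length trend 0.10, trend removed 0.02), with 3 of 22 over 2-fold higher and none lower, all 3 of them, Notch3, Abcc9 and the muscarinic receptor Chrm2, with transcripts of 6085 to 8358 bases. Tagln had 3980 and 2651 counts (-0.60) and Myh11 5483 and 6236 (0.18). With the trend removed none of the 22 passed 2-fold.

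Fibroblast and matrix genes had a median of -0.18 (length trend 0.13, trend removed -0.17), with 3 of 30 over 2-fold lower and none higher. Mfap4, a protein of elastic microfibrils, had 7887 and 6691 counts in the normal libraries, 7820 in OVA-induced WT against 2192 in OVA-induced Rab44-KO (-1.84). Lum, the proteoglycan lumican, had 260, 236, 153 and 58 counts (-1.41) and Tcf21, a transcription factor of lung fibroblasts, 2126, 1589, 1812 and 830 (-1.14). In all 3 the OVA-induced Rab44-KO library was the lowest of the 4. Col3a1, a fibrillar collagen, had 13146 and 6695 counts (-0.98). Mesothelial genes had a median of 0.11 (length trend -0.16, trend removed 0.22) and 1 of 13, Muc16, passed 2-fold, but none with the trend removed.

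Heart muscle genes, which mark tissue other than lung alveoli and airways, were higher in the Rab44-KO library. Cardiac muscle also sheathes the pulmonary veins of mice. Of 22 genes 10 were over 2-fold higher and none lower, with a median of 0.72, and against a length trend of -0.34 the median was 1.11 and 14 genes passed when it was removed. Myh6, the alpha myosin heavy chain, had 5367 and 6059 counts in the normal libraries, 1942 in OVA-induced WT against 6774 in OVA-induced Rab44-KO (1.79). Ryr2, the calcium release channel, had 412, 487, 171 and 820 counts (2.25), its regulator Pln, phospholamban, 279, 334, 127 and 529 (2.05), and the giant protein Ttn, at 117640 bases, 538, 710, 266 and 983 (1.88). Txlnb, Tbx20, Hrc and Xirp2, muscle or heart genes among the 12 largest increases, were between 5.1- and 6.43-fold higher. The summed level of the list was 1128 and 1225 CPM in the normal libraries, 563 in OVA-induced WT against 1107 in OVA-induced Rab44-KO, so the OVA-induced WT library stood apart from the other 3. Of the same list, Actc1 and Des did not follow, at -0.22 and 0.01, and Des is also a member of the smooth muscle list. Adipocyte genes had 5 of 13 over 2-fold higher and 1 lower, with a median of 0.34 (length trend -0.36, trend removed 0.75). Car3, the carbonic anhydrase of fat and muscle, had 767, 1214, 128 and 416 counts (1.69), and the lipase Lipe 512, 713, 895 and 2198 (1.29). How far the amount of heart, vein or fat tissue in the dissected lungs moved these values was not tested.

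Immediate-early and glucocorticoid-responsive genes included some of the clearest increases. Of 25 immediate-early genes 5 were over 2-fold higher and 2 lower, with a median of 0.35 (length trend -0.15, trend removed 0.57). Dusp1, a phosphatase that switches off MAP kinases, had 4307 and 7681 counts in the normal libraries, 3899 in OVA-induced WT against 13285 in OVA-induced Rab44-KO (1.76), Fos 1360, 3226, 533 and 1802 (1.75) and Egr1 1740, 3167, 848 and 2408 (1.5). These 3 genes were higher in Rab44-KO in both conditions, and 5 of the 25 genes were over 2-fold higher in the normal pair. Of 16 glucocorticoid-responsive genes 5 were over 2-fold higher and 2 lower, with a median of 0.64 (length trend -0.11, trend removed 0.70). Pdk4, a kinase that restrains the use of pyruvate (chromosome 6, 5483351 to 5496309), had 211 and 283 counts in the normal libraries, 445 in OVA-induced WT against 2028 in OVA-induced Rab44-KO, a log2FC of 2.18 (2.03 to 2.33). Tsc22d3, a common readout of the receptor, had 6763 and 8586 counts (0.33). Of 15 hypoxia-responsive genes 2 were over 2-fold higher and 1 lower, with a median of 0.11 (length trend -0.15, trend removed 0.00). Epas1, the hypoxia-inducible factor HIF-2 alpha, had 53789, 53838, 31710 and 69899 counts (1.13). None of 17 heat shock genes passed 2-fold, with a median of -0.05 (length trend -0.23), or 0.13 with 1 higher with the trend removed.

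Genes of the circadian clock differed in both directions. Of 17 genes 5 were over 2-fold lower and 2 higher, with a median of -0.30 (length trend 0.02, trend removed -0.07). Dbp, an output factor of the clock (chromosome 7, 45705088 to 45710203), had 4881 and 4802 counts in the normal libraries, 1278 in OVA-induced WT against 74 in OVA-induced Rab44-KO, a log2FC of -4.12 (-4.48 to -3.78). Nr1d1 and Nr1d2, repressors of the clock that peak by day, had 4723 and 5563 counts in normal WT, 4161 and 5671 in normal Rab44-KO, 2235 and 2510 in OVA-induced WT and 648 and 807 in OVA-induced Rab44-KO, with log2FC of -1.80 and -1.65. Npas2, an activator that they repress, had 23 and 28 counts in the normal libraries, 122 in OVA-induced WT against 380 in OVA-induced Rab44-KO (1.63), and Cry1, named after its value was seen, 596, 550, 388 and 887 (1.18). The normal libraries were alike in these genes, and OVA-induced Rab44-KO lay beyond OVA-induced WT in the direction away from normal for Dbp, Nr1d1, Nr1d2 and Npas2. The hour at which the lungs were taken is not given in the sources used here.

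All 36 ribosomal protein genes had a log2FC below 0, between -0.91 and -0.19, and none passed 2-fold. Their median was -0.68, the length trend -0.46, and the median with the trend removed -0.26. Rps3 had 16634 counts in OVA-induced WT against 10196 in OVA-induced Rab44-KO (-0.72). Of 25 respiratory chain genes 1, Cox5a, was over 2-fold lower, and none with the trend removed, with a median of -0.64 (length trend -0.45, trend removed -0.22). Sdha, a larger subunit, had 5998 and 5168 counts (-0.22). Among 15 housekeeping genes the median was -0.60 (length trend -0.26, trend removed -0.31), and Ppia was the 1 over 2-fold lower, with 11196 and 5197 counts (-1.12). With the trend removed none of the 15 passed 2-fold.

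Membrane fusion is a step that Rab GTPases prepare. Of 29 SNARE and exocytosis genes 4 were over 2-fold lower and 1 higher, with a median of -0.30 (length trend 0.09, trend removed -0.17). The 4 lower genes, Snap25, Rph3a, Syt1 and Syt2, named after their values were seen, had few counts, 69, 32, 42 and 19 in the OVA-induced WT library against 0, 0, 5 and 8 in Rab44-KO. The most abundant, Vamp8 of granule and endosome fusion, had 5752 and 3824 counts (-0.60), and Stx7 of late endosomes 3277 and 2876 (-0.20). Syt7, a calcium sensor of lysosomal and granule exocytosis, had 559 and 1051 counts (0.90).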

How the data were processed

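Lung RNA of 4 libraries was sequenced with 150-bp paired-end reads. HISAT2 was used by the authors for alignment to GRCm38 and featureCounts for the raw counts per gene, which they deposited. The authors also deposited TPM, which equal the counts rescaled by 1 length per gene, and these lengths were recovered for 28168 genes as whole numbers (within 0.001 bases, scaled on 364 snoRNAs). They correlated with GENCODE M21 exon lengths at a Spearman's rho of 0.815 over 20623 genes, as a description. Tool versions and the handling of strand and multimapped reads are not given in the sources used here. The authors' DESeq2 comparison needs replicates and was not rerun as a test. Gene starts in the table matched GENCODE M21 for 0.889% of 27552 genes, so positions are from GENCODE M21 on GRCm38.

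Counts were scaled by TMM over the 4 libraries (edgeR 4.0.16, R 4.3.3, factors 0.973 to 1.02), and log2FC took a prior count of 0.125. Intervals cover counting error only. A 0 count was set to a floor of 3 counts to give a fold. No replicate, batch or date label exists within a group. The members and lists were chosen with earlier results of these data known. Genes were named by a rule: 4 markers, the 12 largest log2FC per direction among protein-coding genes with at least 100 counts, the 5 with at least 1000 counts, the 3 that are not protein-coding, and in each list the 4 largest with at least 100 counts and the 2 with most counts in OVA-induced WT. Genes outside it were named after their values were seen. Of 267 named genes in GENCODE, 226 shared no 150-base window with another gene. Alternatives were DESeq2 1.42.0 size factors, total counts, TMM on the 2 libraries or without immunoglobulin genes, TPM, a prior count of 2, other count minimums, 4-fold, whole intervals beyond 2-fold, and removal of the length trend by either length. Python 3.11.15, numpy 2.4.6, pandas 2.3.3, scipy 1.17.1, Biopython 1.88 and matplotlib 3.10.9 were used, and the steps were tested on simulated data.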

Additional observations from a re-analysis of the deposited data

Results flagged for a closer look

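The 8 following genes differed over 2-fold in opposite directions between Rab44-KO and WT in the normal and the OVA-induced pair, each with 1 library a side, and this difference between conditions was not tested. Clca1 had a log2FC of 1.27 in the normal pair but -8.77 under OVA. Marco, the macrophage scavenger receptor, had 1.46 and -3.59, the interferon-induced chemokine Cxcl9 1.17, from 6 and 13 counts with an interval of -0.31 to 2.87, and -3.13, and Slc7a11, the cystine transporter, 2.15 and -1.17. Igkv2-137 had 1.06 and -6.96, from 7 and 14 counts in the normal pair, and 43.5% of its windows occur in another gene. In the other direction, the platelet genes Ppbp and Tubb1 had -1.16 and -1.10 in the normal pair but 1.49 and 1.46 under OVA, and Stfa2l1 had -1.29, from 13 and 5 counts, and 1.39.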

How the results depend on the processing

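The counts of genes over 2-fold moved by less than 1.5 times with DESeq2 size factors, total counts, TMM on the 2 libraries, a prior count of 2, TMM without immunoglobulin genes and removal of the length trend by the deposited lengths. Against 1617 higher and 1413 lower, TPM gave 2602 and 777, and it shifted the median of all genes by 0.33. Removal of the trend by GENCODE lengths gave 1022 and 883 over the 16408 genes with such a length. A count minimum of 1 gave 4404 and 3552, of 50 gave 754 and 791, and of 100 gave 499 and 595. A 4-fold threshold gave 350 and 413, and intervals wholly beyond 2-fold 412 and 532. Against 10 lists with a median below -1 and 1 above 1, TPM gave 3 and 2, and removal of the trend 5 and 2 by the deposited lengths and 4 and 2 by GENCODE lengths. The length trend, as the running median at the 90th minus that at the 10th percentile of length, was 0.76, and 0.60 with GENCODE lengths. None of the 156 named genes over 2-fold changed sign, and 115 stayed over 2-fold under all 8 alternatives computed for them. Of 500 list medians under the alternatives, 24 left the interval over members, 13 of them with TPM. The Rab44 fold at 3 counts was 260 to 272 over the scalings. No paired analysis was possible because each group is 1 library and the labels give no replicate numbers. With 1 library a group, leaving out a library leaves no comparison.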

Other observations

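Among 28 annotated processes of the deposited table that were also summarised, adaptive immune response had 132 of 302 genes over 2-fold lower and 15 higher, with a median of -0.82 and a length trend of -0.30, and with the trend removed 107 lower and 25 higher at -0.58. How many of these are immunoglobulin variable genes, of which 106 of 164 were lower, was not counted. Inflammatory response had 67 lower and 13 higher of 368, with a median of -0.25 and a length trend of -0.12, and with the trend removed 42 lower and 16 higher at -0.18. Chromatin organization, with 10 lower and 5 higher of 390 genes, and protein ubiquitination, with 17 lower and 13 higher of 493, had medians of 0.06 and -0.05, length trends of 0.14 and 0.00 and medians of -0.04 and -0.05 with the trend removed. Cholesterol biosynthesis had 6 lower and 2 higher of 32, with a median of -0.52 where genes of their length had -0.10, and -0.42 with the trend removed. Synapse assembly, whose genes have a median length of 7538 bases, had a median of 0.37 and a length trend of 0.28, and 0.07 with the trend removed. Cell adhesion had 44 genes higher and 47 lower of 505, with a median of 0.13, a length trend of 0.05 and a median of 0.07 with the trend removed. Axon guidance, with a median length of 5682 bases, went from 0.24 to 0.05 when the trend was removed.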
